A study of Mus musculus with 6 samples.

Results

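Transcript levels of 35 genes of glycolysis and the hypoxia response were followed in basal epidermal cells of mouse embryos. The genes were taken from a list by function, covering glucose uptake, every enzymatic step of glycolysis, lactate handling and export, the oxygen-sensing HIF system and a set of its targets. All 35 were found among the 24354 genes of the deposited table. The tested cells were homozygous for the activating allele Pik3ca H1047R (Pik3caH1047R/H1047R, called mutant here) and the comparison cells were WT, with 3 RNA-seq libraries of each. Both groups had the strain label C57BL6, the stage E18.5, shortly before birth, and the same sort for high surface α6 integrin, part of the receptor that holds the lowest epidermal layer to its basement membrane. The labels used here do not say how or in which cells the mutant allele was switched on, nor whether each library came from a separate embryo, so p-values measure the spread between these libraries, which may be in part technical.

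Glycolysis converts glucose to pyruvate in the cytosol. Hexokinase traps glucose in the cell, phosphofructokinase commits it to breakdown, the lower steps yield ATP, and lactate dehydrogenase and monocarboxylate carriers turn pyruvate into exported lactate. Genes of most steps are known targets of HIF-1, a transcription factor whose alpha subunit is marked for destruction by prolyl hydroxylases when oxygen is present; PI3K, the lipid kinase whose catalytic subunit Pik3ca encodes, is a known regulator of glucose uptake and of HIF-1 translation.

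HIF binds DNA at a short core word, ACGTG or GCGTG, and the upstream sequences of the listed genes were searched for it because the list joins direct HIF targets with other enzymes. RefSeq promoter sequences of build GRCm38.p6 were matched for 34 of the 35 genes, Ero1l under its RefSeq symbol Ero1a. In the 250 bases upstream of a start site, 31 of these 34 genes (91.2%) held at least 1 such word on either strand in at least 1 window, against 63.2% of 8623 other tested genes with a promoter entry and 41.5% of 27025 genes of the promoter table. The word was found in 7 of 7 matched genes that were higher in mutant cells, in 9 of 10 that were lower and in 15 of 17 that passed the test in neither direction, so genes of all 3 kinds carried it. Genes with more windows have more chances of a match. Counted by window, 80.4% of 51 windows of the listed genes held a word, against 38.6% of all 32851 windows of the promoter table. A match is a run of letters and not evidence of binding.

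Stretches of 7 promoters are shown, chosen to show words in 2 pairs of hydroxylases whose members moved in opposite directions, a lactate carrier, a glycolytic enzyme and a secreted HIF target; each was placed on the words of its promoter. Each is written 5′ to 3′ on the strand of its gene, with capitals for ACGTG or GCGTG and for their reverse complements CACGT and CACGC. Overlapping words were counted separately, so CACGTG, as in Slc16a1, counts as 1 word on each strand. P4ha2 (chr11:54100799-54100877, plus strand) and Egln1 (chr8:124949310-124949388, minus strand) were higher in mutant cells, as was Slc16a1 (chr3:104638460-104638538, plus strand). P4ha1 (chr10:59323096-59323174, plus strand), Egln3 (chr12:54204062-54204124, minus strand), Pgk1 (chrX:106186922-106187001, plus strand) and Adm (chr7:110627548-110627626, plus strand) were lower.
P4ha2: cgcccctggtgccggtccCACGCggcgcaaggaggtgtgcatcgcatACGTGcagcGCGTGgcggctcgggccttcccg
P4ha1: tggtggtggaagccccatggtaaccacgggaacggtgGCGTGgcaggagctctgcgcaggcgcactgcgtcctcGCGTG
Egln1: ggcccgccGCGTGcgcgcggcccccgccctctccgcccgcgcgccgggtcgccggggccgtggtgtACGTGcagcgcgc
Egln3: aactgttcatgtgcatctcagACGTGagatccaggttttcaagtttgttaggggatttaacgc
Slc16a1: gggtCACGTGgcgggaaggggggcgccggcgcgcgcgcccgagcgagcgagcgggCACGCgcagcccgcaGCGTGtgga
Pgk1: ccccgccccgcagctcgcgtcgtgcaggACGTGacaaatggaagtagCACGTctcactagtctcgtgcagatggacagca
Adm: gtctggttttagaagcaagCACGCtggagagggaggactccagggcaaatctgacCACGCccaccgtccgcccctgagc

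Levels are given in FPKM, a fragment count corrected for transcript length and a library total, and no read totals were used here, so depth is unknown. Summed FPKM ran from 538627 to 651769 in mutant libraries and from 656761 to 767148 in WT libraries, and between 11242 and 11351 genes per library reached 1 FPKM. The interval the authors deposited with each value had, for the listed genes, a median halfwidth of 36.6% to 38.8% of the value. An FPKM value does not show which allele a transcript carries; Pik3ca itself averaged 6.65 FPKM in mutant and 9.04 FPKM in WT cells. Of 10 basal keratinocyte markers, 1 (Krt15) was higher and 6 were lower in mutant cells. The 6 include Itga6, the gene of the sorted α6 integrin, at 122.5 FPKM in mutant and 163.2 FPKM in WT cells. The Itga6 call ended under same-total scaling (log2 difference -0.08) and after quantile normalization (-0.16), and its deposited locus is the same as that of Pdk1. The 10 markers summed to 23940 to 27350 FPKM in mutant and 26230 to 26550 FPKM in WT libraries. Of 8 markers of the suprabasal layers, 4 were higher and 1 lower, with sums of 11750 to 14350 FPKM in mutant and 3861 to 4663 FPKM in WT libraries and none at 0. Markers of other cell types passed the test only as lower in mutant cells: 2 of 7 tested fibroblast markers, 4 of 5 of skeletal muscle, 3 of 5 of erythroid cells, 1 of 1 of endothelium, 2 of 3 of melanocytes, 3 of 5 of immune cells and 0 of 3 of adipocytes. The 3 immune calls include C1qc, at 0.963 FPKM in mutant and 1.71 FPKM in WT cells. It reached the mean of 1 FPKM needed for testing only through its WT libraries, so its call is not read as support. Fibroblast markers summed to 306 to 341 FPKM in mutant and 375 to 513 FPKM in WT libraries, muscle markers to 11.9 to 13.6 and 20.98 to 35.0 FPKM in mutant and WT libraries, and erythroid markers to 82.8 to 148 and 222 to 288 FPKM in mutant and WT libraries. Endothelial markers (4.69 to 6.97 FPKM in mutant, 8.36 to 12.5 FPKM in WT), melanocyte markers (11.0 to 14.7 FPKM in mutant, 15.8 to 21.6 FPKM in WT), immune markers (6.16 to 6.78 FPKM in mutant, 8.71 to 11.1 FPKM in WT, with Cd207 at 0 throughout) and adipocyte markers (8.57 to 22.1 FPKM in mutant, 5.16 to 59.9 FPKM in WT) were low. No nerve marker was tested, and these summed to 1.62 to 1.68 FPKM in mutant and 1.42 to 2.12 FPKM in WT libraries. Under same-total scaling the lower calls fell to 0 for fibroblast, endothelial, melanocyte and immune markers, those of muscle and erythroid cells stayed at 4 and 3, basal markers were 3 higher and 4 lower, and suprabasal markers 5 higher and 1 lower. Over all 11385 genes tested, 23.2% were higher and 22.8% lower as deposited, and 5375 were higher and 842 lower under same-total scaling. The part of these marker levels in the results on glycolysis and hypoxia genes was not tested. In bulk RNA, fewer cells of a type and less RNA per cell cannot be told apart.

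The glycolysis and hypoxia genes did not move as a block. Tested with limma on log2(FPKM + 1), with an adjusted p under 0.05 as the threshold, 7 of the 35 genes were higher in mutant cells (Hk2, Aldoc, Slc16a1, Pdk1, Egln1, P4ha2 and Ero1l) and 11 were lower (Slc2a1, Slc2a3, Gpi1, Pfkm, Pfkp, Aldoa, Gapdh, Pgk1, Egln3, Adm and P4ha1). The 11 include Slc2a3, which reached the 1 FPKM filter only through its WT libraries. The remaining 17 passed in neither direction. The 51.4% called compares with 46.0% of all 11385 genes tested, the 20% higher with 23.2% and the 31.4% lower with 22.8%. The groups did not overlap for 20 listed genes (57.1%), 8 with every mutant library above every WT library and 12 with every one below, against 56.0% of all tested genes. The median difference was -0.07 on the log2 scale over the listed genes and 0.01 over all tested genes. The called and the non-overlapping shares are close to the background, so the list as a whole was not set apart by how many of its genes changed, and the results lie in which genes moved and by how much. How libraries are scaled decides part of the split: 15 higher and 1 lower were called when every library was scaled to the same summed FPKM, and 12 higher and 6 lower after quantile normalization. Over all 11385 genes tested, same-total scaling called 5375 higher and 842 lower, and quantile normalization 3012 higher and 2410 lower. The 7 higher genes were called higher under every scaling tried. Of the 11 lower genes only Slc2a3 was called lower under every scaling, and that call is not read as support because of its filter limit. Same-total scaling moved the median of all tested genes to 0.30, so higher calls were easier to keep under it than lower ones. Relative to the median gene under that scaling, all 11 lower genes stayed below and all 7 higher genes above. A different sign under at least 1 scaling was found for 13 listed genes.

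**Figure D1:**
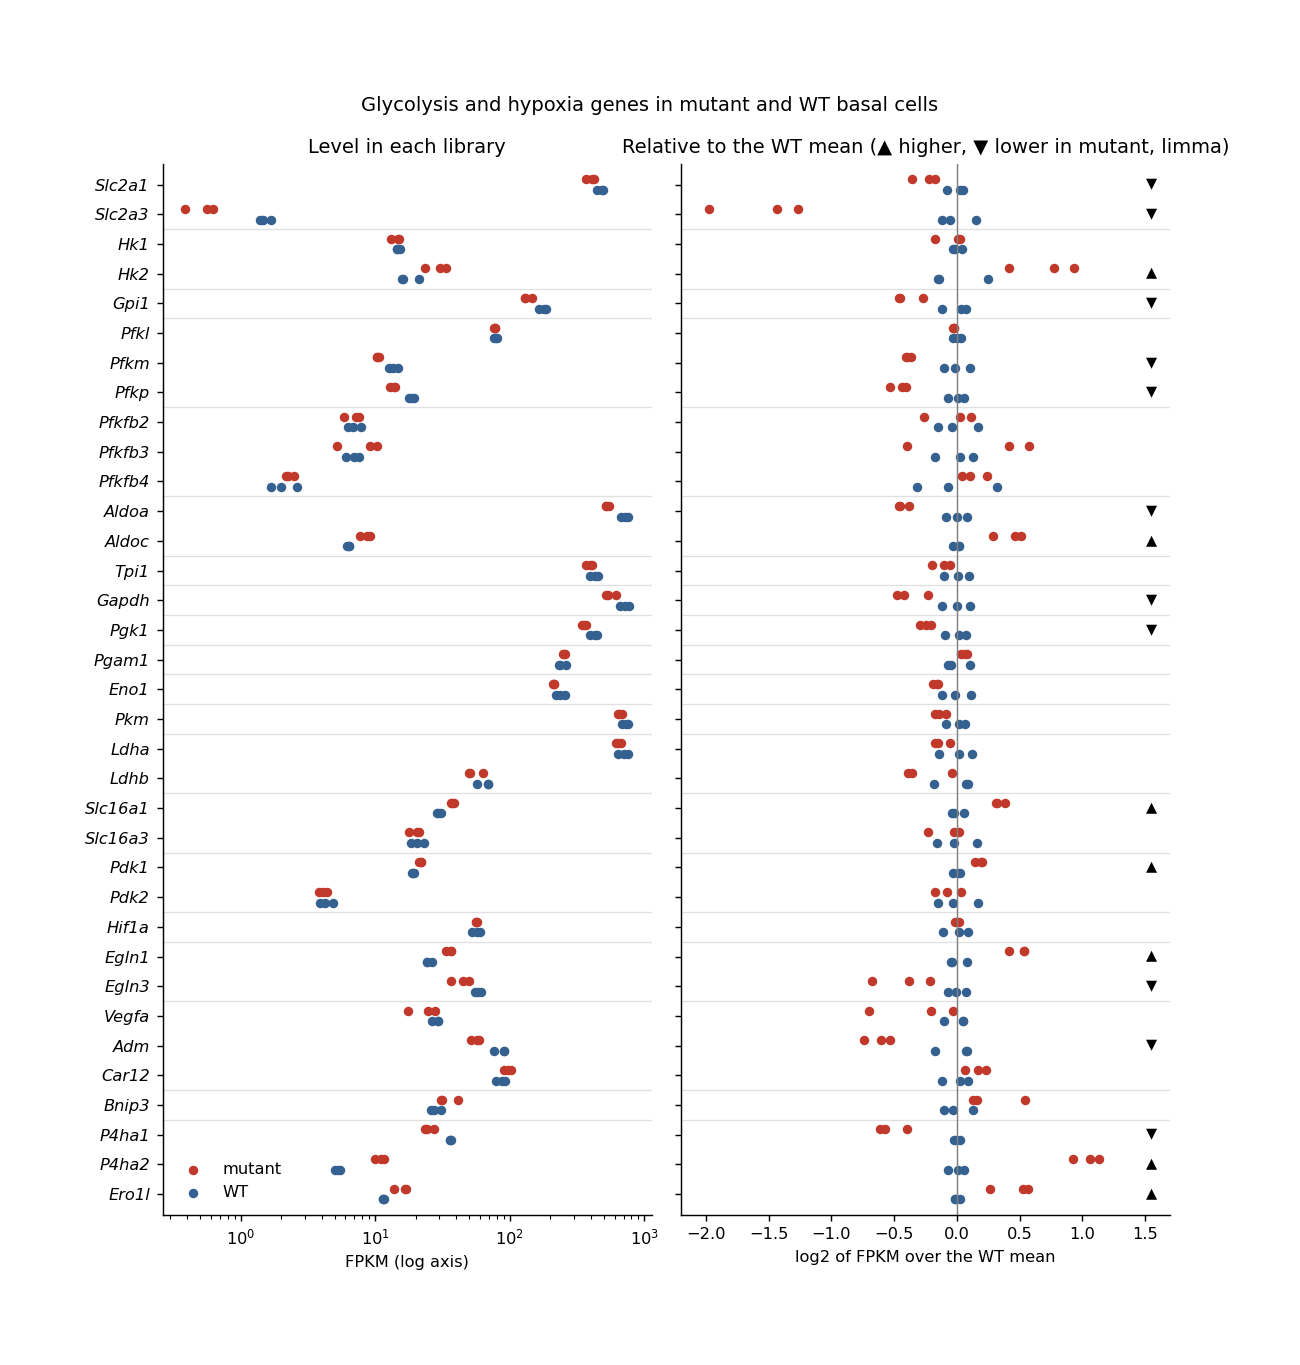
FPKM of the 35 genes in each library on a log axis (left) and the log2 ratio of each library's FPKM to the WT mean of the gene (right), with mutant libraries in red above WT libraries in blue; triangles mark genes called higher or lower in mutant cells by limma. P4ha2 and Hk2 stand farthest right and Slc2a3 farthest left, while enzymes such as Pfkl and Tpi1 have overlapping groups.

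Glucose entry showed the carriers lower and a hexokinase higher. Slc2a1, the main glucose carrier of keratinocytes (GLUT1), had 419, 405 and 368 FPKM in mutant libraries, against 489.8, 446 and 481 FPKM in WT libraries. Every mutant value was below every WT value, but the difference was small, 0.841-fold or -0.25 on the log2(FPKM + 1) scale (SE 0.0846, limma adjusted p = 0.042). The call was lost whichever of the 6 libraries was left out, and the sign turned (0.08) under same-total scaling. Slc2a3 (GLUT3) is a high-affinity carrier best known from neurons. It had 0.627, 0.384 and 0.559 FPKM in mutant and 1.46, 1.68 and 1.39 FPKM in WT libraries, a 0.347-fold level. The groups did not overlap, but Slc2a3 reached the 1 FPKM filter only through its WT libraries, so its test is not given. It is scarce beside Slc2a1.

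Hk2, the inducible hexokinase (chr6:82725027-82774454), showed the largest rise among the enzymes of the glycolytic chain. Its levels were 33.7, 30.2 and 23.5 FPKM in mutant libraries and 15.9, 16.0 and 20.98 FPKM in WT libraries. All 3 mutant libraries were above all 3 WT libraries, with mutant replicate 3 and WT replicate 3 closest to each other, and the level was 1.65-fold that of WT (log2 difference 0.69, SE 0.146, adjusted p = 0.00628). Hk1, the constitutive hexokinase, averaged 14.3 ± 1.07 FPKM in mutant and 14.8 ± 0.396 FPKM in WT cells (SD, n = 3 each; limma adjusted p = 0.651), and its groups overlapped.

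Next in the chain, Gpi1, the isomerase that makes fructose 6-phosphate, had 129, 129 and 147 FPKM in mutant libraries, against 187, 181 and 163 FPKM in WT libraries (0.763-fold, log2 difference -0.39, SE 0.0828, adjusted p = 0.00646). The groups did not overlap, and the call ended under same-total scaling (-0.06). The phosphofructokinases, which catalyse the committed step, differed by isozyme. Pfkl, the liver-type and here the most abundant one, had 77.4, 76.9 and 77.1 FPKM in mutant and 80.2, 78.5 and 76.7 FPKM in WT libraries, which overlapped (adjusted p = 0.736).

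Pfkm, the muscle type, was lower in every mutant library, at 10.6, 10.3 and 10.3 FPKM against 14.6, 12.7 and 13.4 FPKM in WT libraries (log2 difference -0.35, SE 0.0657, adjusted p = 0.00348). Pfkp, the platelet type, had 13.8, 14.1 and 12.9 FPKM in mutant and 18.8, 17.8 and 19.4 FPKM in WT libraries (log2 difference -0.43, SE 0.0623, adjusted p = 0.00113), again with no overlap. Both calls ended under same-total scaling, at -0.05 and -0.12. The deposited loci of Pfkm and Pfkp also cover a gene on the other strand, Senp1 and Pitrm1, and reads of the 2 strands may not have been told apart. The 3 bifunctional enzymes that make and remove fructose 2,6-bisphosphate, the allosteric activator of phosphofructokinase, were low and overlapped between groups: Pfkfb2 averaged 6.86 FPKM in mutant and 7.01 FPKM in WT cells, Pfkfb3 8.21 FPKM in mutant and 6.86 FPKM in WT cells, and Pfkfb4 2.29 FPKM in mutant and 2.09 FPKM in WT cells. Pfkfb3 was uneven among mutant libraries, at 9.16, 10.2 and 5.20 FPKM, against 6.98, 6.09 and 7.51 FPKM in WT libraries (adjusted p = 0.482); without mutant replicate 3 it passed as higher (log2 difference 0.45, adjusted p = 0.0102).

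The aldolases, which split the six-carbon sugar, moved in opposite directions. Aldoa, the ubiquitous form and among the most abundant transcripts of the list, had 518, 520.3 and 548 FPKM in mutant libraries, against 756, 712 and 670.3 FPKM in WT libraries (0.742-fold, log2 difference -0.43, SE 0.0847, adjusted p = 0.00464). Aldoc, the brain-type form, had 9.06, 8.75 and 7.75 FPKM in mutant and 6.19, 6.42 and 6.42 FPKM in WT libraries (1.34-fold, log2 difference 0.37, SE 0.0717, adjusted p = 0.00413). Neither gene's groups overlapped. Exons of Aldoa are overlapped by Fam57b on the other strand. Aldoa lost its call under same-total and quantile scaling (both -0.10), while Aldoc kept it.

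Gapdh and Pgk1, which carry out the oxidation and the first ATP-forming step of the lower chain, were modestly lower in mutant cells. Gapdh had 516, 536 and 613 FPKM in mutant libraries and 773, 719.8 and 660.4 FPKM in WT libraries (0.774-fold, log2 difference -0.37, SE 0.103, adjusted p = 0.0205). Transcripts at least 95% identical to that of Gapdh over 300 bases come from 76 other genes, 74 of them pseudogenes, so its reads may be split; Pgk1 has 4 such pseudogenes. Pgk1 had 345, 357 and 367 FPKM in mutant and 446, 429 and 397 FPKM in WT libraries (0.841-fold, log2 difference -0.25, SE 0.0776, adjusted p = 0.0321). Neither gene's groups overlapped, yet both calls were lost when mutant replicate 1 or 2 or WT replicate 1 or 2 was left out, and under same-total and quantile scaling Gapdh came to -0.04 and -0.02 with no call and Pgk1 changed sign to 0.08.

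Tpi1, which interconverts the triose phosphates, had 371, 397 and 411 FPKM in mutant and 454, 427 and 395 FPKM in WT libraries (adjusted p = 0.304). Pgam1, the mutase that follows Pgk1, had 249, 255 and 257 FPKM in mutant and 262, 236 and 232 FPKM in WT libraries (adjusted p = 0.517). Both genes overlapped between groups as deposited, and both passed as higher under same-total and quantile scaling (0.22 under both for Tpi1, 0.39 and 0.43 for Pgam1). Eno1, the main enolase, had 208, 213 and 214 FPKM in mutant libraries and 257, 235 and 219 FPKM in WT libraries; the groups did not overlap, but the test was not passed (log2 difference -0.16, adjusted p = 0.124).

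At the end of the chain the transcripts were abundant and, as deposited, passed the test in neither direction; Pkm and Ldha passed as higher under same-total and quantile scaling. Pkm, pyruvate kinase, had 637, 651 and 678 FPKM in mutant and 755, 728 and 677 FPKM in WT libraries (adjusted p = 0.231); these gene-level values do not separate its M1 and M2 forms. Ldha, the lactate dehydrogenase subunit that favours lactate formation, had 619, 632 and 674 FPKM in mutant and 761, 707 and 633 FPKM in WT libraries (adjusted p = 0.332), with near-identical transcripts from 3 pseudogenes. For both genes, mutant replicate 3 was the highest mutant library and WT replicate 3 the lowest WT library, and there the groups met. Ldhb, the heart-type subunit, averaged 54.4 ± 7.64 FPKM in mutant and 64.9 ± 6.60 FPKM in WT cells (SD, n = 3 each; limma adjusted p = 0.0983) and passed as lower without replicate 3 of either group (log2 difference -0.36 without the mutant library and -0.34 without the WT library).

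The 2 lactate carriers differed. Slc16a1 (MCT1, chr3:104638664-104658462), which moves lactate in either direction, had 37.0, 38.6 and 36.8 FPKM in mutant libraries and 28.8, 30.9 and 29.2 FPKM in WT libraries. The spread within each group was far smaller than the gap between them (1.26-fold, log2 difference 0.33, SE 0.0558, adjusted p = 0.00233), and the call was kept in every alternative. Slc16a3 (MCT4), the exporter of highly glycolytic cells, averaged 19.7 ± 1.74 FPKM in mutant and 20.8 ± 2.33 FPKM in WT cells (SD, n = 3 each; limma adjusted p = 0.58).

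Of the kinases that switch off pyruvate dehydrogenase, Pdk1 had 21.1, 21.8 and 21.9 FPKM in mutant and 19.2, 19.4 and 18.7 FPKM in WT libraries (1.13-fold, log2 difference 0.17, SE 0.0522, adjusted p = 0.0292). It was the smallest rise among the 7 and lost its call whichever of the 6 libraries was left out; its deposited locus is 16.8 times as long as the annotated gene and also covers Itga6 and other genes. Pdk2 averaged 4.10 ± 0.298 FPKM in mutant and 4.30 ± 0.487 FPKM in WT cells (SD, n = 3 each; limma adjusted p = 0.659).

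Of the 6 lower calls among the enzymes, 4 lay with abundant transcripts (Gpi1, Aldoa, Gapdh and Pgk1) and 2 with scarce ones (Pfkm and Pfkp). The 16 enzymes of the chain from hexokinase to lactate dehydrogenase included 2 higher and 6 lower genes, beside 23.2% higher and 22.8% lower over all tested genes, with a median log2 difference of -0.15. Their FPKM summed to 3803, 3897 and 4117 in mutant libraries and to 4868, 4590 and 4258 in WT libraries, with no overlap. As a percentage of all summed FPKM in the same library, these were 0.701, 0.724 and 0.632 in mutant and 0.647, 0.598 and 0.648 in WT libraries, and by that measure the groups overlapped. Of the 10 listed genes that averaged 100 FPKM or more over the 6 libraries, 0 were higher and 5 were lower; among all 751 genes at that level, 6.66% were higher and 46.3% lower. The median log2 difference was -0.20 over those 10 genes and -0.26 over the 751, so the abundant glycolytic transcripts were lower to about the extent of other abundant transcripts. Mutant replicate 3 was the highest mutant library in 9 of the 10, and WT replicate 3 was the lowest WT library in the same 9. Over the 751 genes, the 2 shares taken separately were 83.2% and 77.5%, and their joint share was not computed. Between 20 and 100 FPKM, 4 of 14 listed genes were higher and 3 lower, beside 20.8% and 26.5% of all genes at that level. Between 1 and 20 FPKM, 3 of 11 were higher and 3 lower, beside 25.9% and 18.8% of all.

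**Figure D2:**
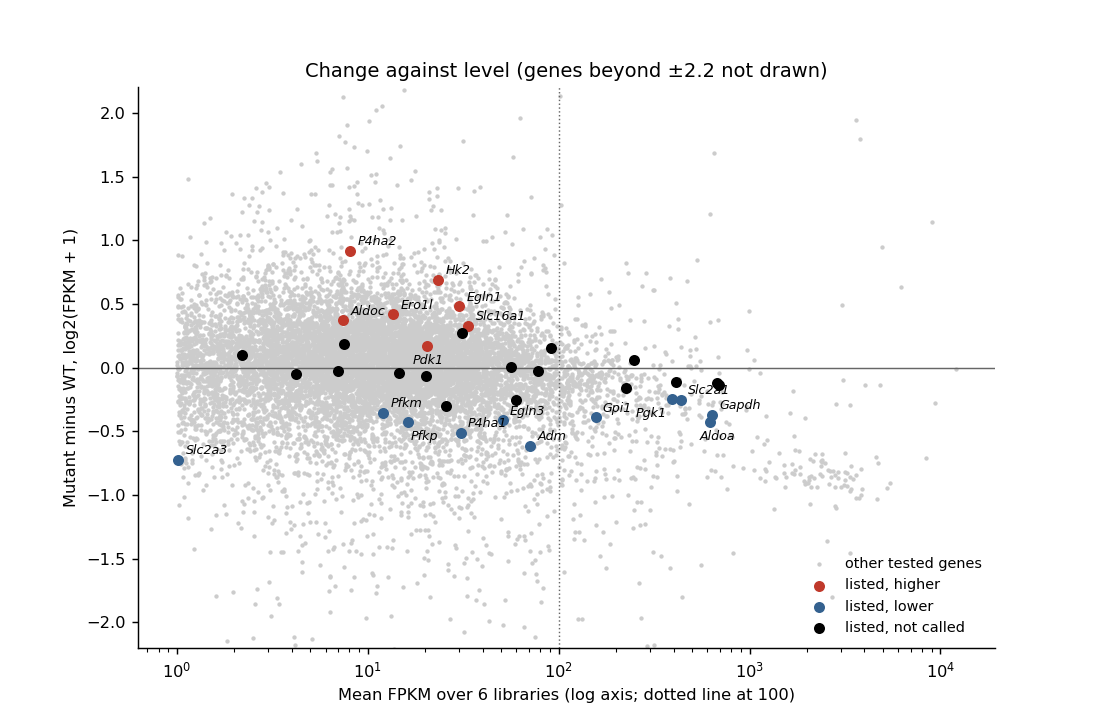
Difference between mutant and WT cells on the log2(FPKM + 1) scale against the mean FPKM of each gene over the 6 libraries (log axis), for all tested genes (grey) and the listed genes (red higher, blue lower, black not called in mutant cells). To the right of the dotted line at 100 FPKM no listed gene is called higher and 5 are called lower, within a cloud of other genes whose median is -0.26.

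Scaling bears on this directly. Setting all libraries to the same summed FPKM multiplies each library by 1 factor and moved the median of all tested genes to 0.30. Relative to that median, the listed genes' median was -0.09, beside -0.08 for the values as deposited. Under same-total scaling Gapdh came to -0.04 (adjusted p = 0.583) and lost its call, while Tpi1 (adjusted p = 0.0304), Pgam1 (0.00583), Pkm (0.0401) and Ldha (0.0271) passed as higher. Quantile normalization changes genes of a library by different amounts and altered their standing among the rest. Relative to the median gene, Pkm was at 0.23, beside -0.14 as deposited, Ldha at 0.21, beside -0.13, Pgk1 at 0.04, beside -0.26, and Slc2a1 at 0.02, beside -0.26. After it, Tpi1, Pgam1, Pkm and Ldha again passed as higher (adjusted p = 0.0091, 0.00179, 0.00985 and 0.00883), and Aldoa, Gapdh and Egln3 lost their calls at -0.10, -0.02 and -0.32.

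**Figure D3:**
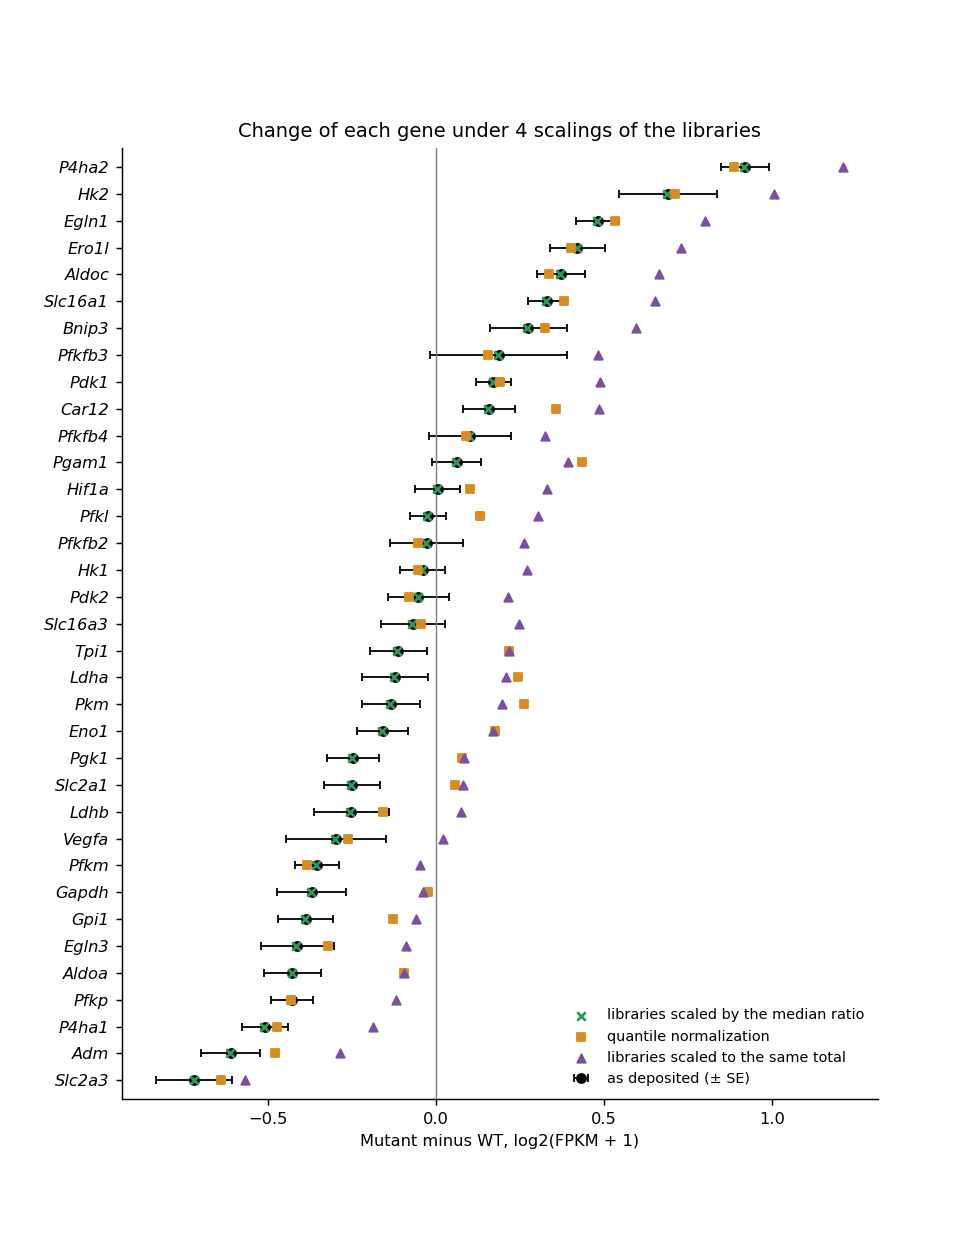
Log2 difference between mutant and WT cells for each listed gene as deposited (black, with its standard error), with libraries scaled by the median ratio (green), after quantile normalization (orange) and with libraries scaled to the same total (purple). The genes from P4ha2 down to Slc16a1 lie right of 0 under all 4 scalings, and abundant genes such as Pgk1 and Slc2a1 cross it.

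Among 10 genes of the hypoxia response, 3 were higher, 3 were lower and 4 passed in neither direction, with a median log2 difference of 0.08; over all tested genes 23.2% were higher and 22.8% lower. Hif1a, the oxygen-regulated subunit, had nearly the same transcript level in both groups, 55.8, 57.1 and 56.5 FPKM in mutant and 60.1, 57.0 and 52.1 FPKM in WT libraries (adjusted p = 0.967); HIF-1 is regulated mainly at the protein level, which these data do not measure. The prolyl hydroxylases that mark it for destruction moved in opposite directions. Egln1 (PHD2, chr8:124908587-124949254), the main oxygen sensor, had 36.2, 36.4 and 33.3 FPKM in mutant libraries and 24.3, 24.4 and 26.4 FPKM in WT libraries. It was 1.41-fold higher with a clear gap between the groups (log2 difference 0.48, SE 0.0631, adjusted p = 0.000689), and the call was kept in every alternative. Egln3 (PHD3, chr12:54178981-54203874) had 50.0, 44.5 and 36.4 FPKM in mutant libraries and 57.9, 55.3 and 61.1 FPKM in WT libraries (0.752-fold, log2 difference -0.41, SE 0.109, adjusted p = 0.0164). Its groups did not overlap, though mutant replicate 3 was well below the other mutant libraries and the call ended under same-total scaling (-0.09).

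The collagen prolyl 4-hydroxylases, whose alpha subunits modify procollagen in the endoplasmic reticulum, gave the strongest contrast of the list. P4ha2 (chr11:54100924-54131667) had 11.0, 11.5 and 10.02 FPKM in mutant libraries and 5.48, 5.29 and 5.01 FPKM in WT libraries. Every mutant library was well above every WT library (2.06-fold, log2 difference 0.92, SE 0.0714, adjusted p = 5.12e-05), the largest rise of the 35 genes. P4ha1 (chr10:59323296-59373304) had 24.3, 27.4 and 23.6 FPKM in mutant and 35.6, 36.0 and 36.7 FPKM in WT libraries. It was lower in every mutant library (0.695-fold, log2 difference -0.51, SE 0.0673, adjusted p = 0.000705), and that call ended only under same-total scaling, at -0.19. Ero1l, the oxidase that helps form disulfide bonds in the same compartment, had 16.6, 17.0 and 13.8 FPKM in mutant and 11.4, 11.4 and 11.7 FPKM in WT libraries (1.37-fold, log2 difference 0.42, SE 0.0824, adjusted p = 0.00446). Its groups did not overlap, and its call was kept in every alternative.

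The secreted and surface HIF targets did not move together. Adm, which encodes the vasodilator peptide adrenomedullin, had 59.5, 56.8 and 51.6 FPKM in mutant libraries, against 90.9, 76.5 and 91.3 FPKM in WT libraries (0.649-fold, log2 difference -0.61, SE 0.0886, adjusted p = 0.00113). The groups were well apart, and the value shrank to -0.29, with the call lost, under same-total scaling. Vegfa, the main angiogenic factor of the epidermis, had 27.6, 24.5 and 17.4 FPKM in mutant and 29.2, 26.3 and 29.3 FPKM in WT libraries (log2 difference -0.30, adjusted p = 0.136). Its groups overlapped, since mutant replicate 1 lay within the WT range; without that library the gene passed as lower (log2 difference -0.43, adjusted p = 0.0396). Car12, a surface carbonic anhydrase that handles acid, had 96.5, 101 and 90.2 FPKM in mutant libraries, against 79.1, 91.8 and 87.3 FPKM in WT libraries (adjusted p = 0.128). Bnip3, a mitophagy receptor, had 30.7, 40.9 and 31.4 FPKM in mutant libraries and 30.6, 27.4 and 26.1 FPKM in WT libraries; its groups were barely separate and it did not pass (adjusted p = 0.0823).

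Shares of related genes within a library do not change when all its values are multiplied by 1 factor, as in same-total or median-ratio scaling; they were taken from the values as deposited and not after quantile normalization, which can change them. Over 14 such shares, 9 had groups that did not overlap, each with a two-sided exact permutation p of 0.1, the smallest that 3 against 3 libraries can give (0.156 adjusted over the 14). P4ha1 made up 69.8% ± 0.843 of P4ha1 plus P4ha2 in mutant and 87.3% ± 0.654 in WT libraries (SD, n = 3 each), a fall of 17.5 percentage points. Egln1 was 44.9% ± 2.89 of Egln1 plus Egln3 in mutant and 30.1% ± 0.541 in WT libraries, higher by 14.8 points. Hk2 was 66.8% ± 2.46 of both hexokinases in mutant and 54.2% ± 3.27 in WT libraries, higher by 12.6 points. These 3 shifts were the largest, and in each every mutant library was on the same side of every WT library.

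Slc16a1 made up 65.6% ± 1.68 of the 2 lactate carriers in mutant and 58.9% ± 3.52 in WT libraries. Pfkl was 76.3% ± 0.548 of the phosphofructokinases in mutant and 70.9% ± 1.04 in WT libraries. Pfkm made up 10.3% in mutant and 12.3% in WT libraries, and Pfkp 13.5% in mutant and 16.9% in WT libraries. Aldoa was 98.4% of the aldolases in mutant and 99.1% in WT libraries, and Slc2a1 was 99.9% of the 2 glucose carriers in mutant and 99.7% in WT libraries, so these separations involve very small fractions. The Ldha share of lactate dehydrogenase, 92.2% ± 0.682 in mutant and 91.5% ± 0.360 in WT libraries, overlapped between groups (exact permutation p = 0.3), as did the shares of Pdk1 and of the 3 Pfkfb genes.

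**Figure D4:**
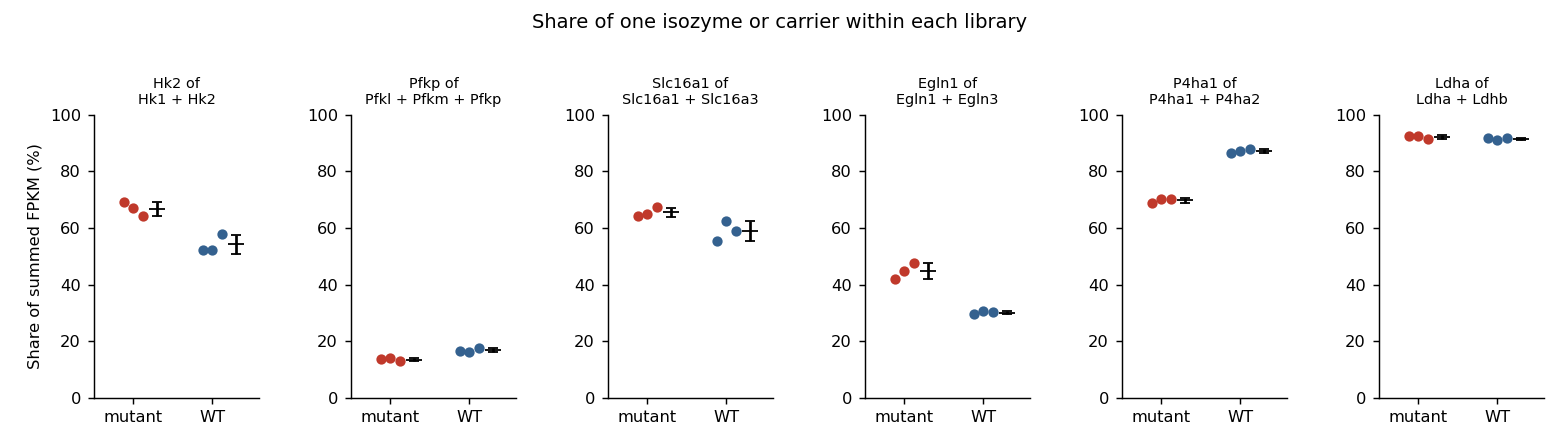
Percentage of the summed FPKM of related genes taken by the named gene in each library (points), with the mean and SD of 3 libraries beside them, mutant left of WT. The groups are separate for Hk2, Pfkp, Slc16a1, Egln1 and P4ha1 and overlap for Ldha.

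Other genes of the same pathways were read in the same limma fit, from lists chosen with earlier results of these data known. The background over all tested genes was 23.2% higher and 22.8% lower as deposited. Under same-total scaling it was 5375 higher and 842 lower of 11385, and the same-total counts below are to be read beside that. Of 5 other sugar transporters tested, 0 were higher and 3 lower (median log2 difference -0.26), and under same-total scaling 1 was lower. Slc2a5, a fructose carrier, had 2.43, 2.55 and 3.21 FPKM in mutant and 8.86, 7.14 and 8.57 FPKM in WT libraries, a 0.333-fold level whose groups were far apart (log2 difference -1.30, adjusted p = 7.35e-05). Slc2a4, the insulin-regulated glucose carrier, was also lower (log2 difference -0.64, adjusted p = 0.000431), as was Slc2a9, a urate carrier (-0.26, adjusted p = 0.0391); both calls ended under same-total scaling.

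Of 15 tested genes listed as other glycolytic and gluconeogenic enzymes, 5 were higher and 3 lower (median 0.07). Under same-total scaling 9 were higher and 1 lower. The 5 include Pgam5 (log2 difference 0.32), which despite its name is a protein phosphatase and not a glycolytic enzyme. Tigar, a phosphatase that lowers fructose 2,6-bisphosphate, had 4.64, 4.16 and 4.49 FPKM in mutant and 1.76, 2.35 and 2.36 FPKM in WT libraries (2.05-fold, log2 difference 0.79, adjusted p = 0.000598), with no overlap. Bpgm, which diverts an intermediate of the lower chain to bisphosphoglycerate (log2 difference 0.46, adjusted p = 0.00168), and Pgm2, a phosphoglucomutase (0.42, adjusted p = 0.00097), were higher. Eno2 and Eno3, the neuronal and muscle enolases, were lower (-0.65, adjusted p = 0.00332, and -0.40, adjusted p = 0.00617), as was Pck2, the mitochondrial PEP carboxykinase (-0.52, adjusted p = 0.00164). The calls of Pck2 and Eno3 ended under same-total scaling.

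Of 4 genes around lactate export, Slc16a6, a monocarboxylate carrier, was higher at 3.96, 4.25 and 3.43 FPKM in mutant libraries, against 0.928, 1.10 and 1.58 FPKM in WT libraries (3.23-fold, log2 difference 1.15, adjusted p = 0.000298). Bsg, the chaperone that brings MCT1 and MCT4 to the surface, was lower (log2 difference -0.28, adjusted p = 0.021), but its sign turned to 0.05 under same-total and 0.04 under quantile scaling. The deposited locus of Bsg is the same as that of Cfd, and its deposited interval had a median halfwidth of 261% of the value. Of 12 genes of pyruvate entry and oxidation, 1 was higher and 3 lower (median -0.02), and under same-total scaling 6 were higher and 1 lower. The phosphatases that reactivate pyruvate dehydrogenase moved in opposite directions, Pdp2 higher (0.51, adjusted p = 0.0066) and Pdp1 lower (-0.59, adjusted p = 0.00225), in the same direction and past the threshold under every scaling. Pdha1 and Pdhb, subunits of the enzyme itself, were lower (-0.32, adjusted p = 0.0129 and 0.0305), and both came to 0.00 or 0.01 under same-total scaling. Of 8 glycogen genes, 0 were higher and 3 lower (median -0.17): Pygb, a glycogen phosphorylase, Gyg, the primer glycogenin, and Gbe1, the branching enzyme, by -0.24, -0.29 and -0.35. All 3 calls ended under same-total scaling, at 0.09, 0.01 and -0.08, where 3 other glycogen genes passed as higher.

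The list of HIF regulators held the largest difference among the tested genes of these 7 lists. Of 15 regulators tested, 2 were higher and 4 lower (median -0.10), and under same-total scaling 5 were higher and 1 lower. Cited2, which competes with HIF-1 for the coactivators p300 and CBP, had 20.4, 26.1 and 29.4 FPKM in mutant libraries and 106, 103 and 108 FPKM in WT libraries. The groups lay far apart, at 0.239-fold (log2 difference -2.04, SE 0.118, adjusted p = 1.47e-05). Vhl, the ubiquitin ligase subunit that captures hydroxylated HIF, was higher, with 7.46, 7.98 and 7.87 FPKM in mutant and 4.46, 4.74 and 4.23 FPKM in WT libraries (1.74-fold, log2 difference 0.68, adjusted p = 0.000181). Epas1, which encodes HIF-2 alpha, was higher (0.57, adjusted p = 0.00896). These 3 held under every scaling. Siah2 and Siah1a, ligases that degrade prolyl hydroxylases, were lower (-0.46, adjusted p = 0.00217, and -0.33, adjusted p = 0.00923), as was Tceb1, the elongin C partner of Vhl (-0.27, adjusted p = 0.047), and none of these last 3 calls held under same-total scaling, where Tceb1 turned to 0.06.

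Of 38 other known HIF targets tested, 11 were higher and 14 lower, with a median log2 difference of -0.14. The 11 include Stc1 and the 14 include Nt5e, which reached the 1 FPKM filter through 1 group only. Nt5e averaged 0.862 FPKM in mutant and 2.19 FPKM in WT cells. Under same-total scaling 14 were higher and 8 lower. Errfi1, a feedback inhibitor of EGFR, had 92.0, 99.7 and 115 FPKM in mutant and 280.4, 252 and 272 FPKM in WT libraries (0.382-fold, log2 difference -1.39, adjusted p = 2.76e-05). Kdm3a, a histone H3 demethylase, had 35.8, 39.2 and 31.1 FPKM in mutant and 74.2, 67.6 and 69.9 FPKM in WT libraries (log2 difference -0.98, adjusted p = 0.000111). Ndrg1 (-0.81, adjusted p = 0.000318), the endothelin gene Edn1 (-1.14, adjusted p = 0.00029), the MYC antagonist Mxi1 (-0.66, adjusted p = 6.66e-05) and Wsb1 (-0.69, adjusted p = 0.000182) were lower too, and all 6 stayed called under every scaling. The targets called higher included 3 named here after their values were seen. Ddit4, an inhibitor of mTORC1 (REDD1), had 104, 90.2 and 72.0 FPKM in mutant and 42.2, 41.9 and 38.3 FPKM in WT libraries (2.18-fold, log2 difference 1.09, adjusted p = 0.000348). Stc2, a stanniocalcin, was 2.24-fold higher (adjusted p = 0.000698). Stc1, the other stanniocalcin, had 2.32, 2.77 and 2.15 FPKM in mutant and 0.934, 0.920 and 0.999 FPKM in WT libraries; it reached the 1 FPKM filter only through its mutant libraries, so its test is not given.

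**Figure D5:**
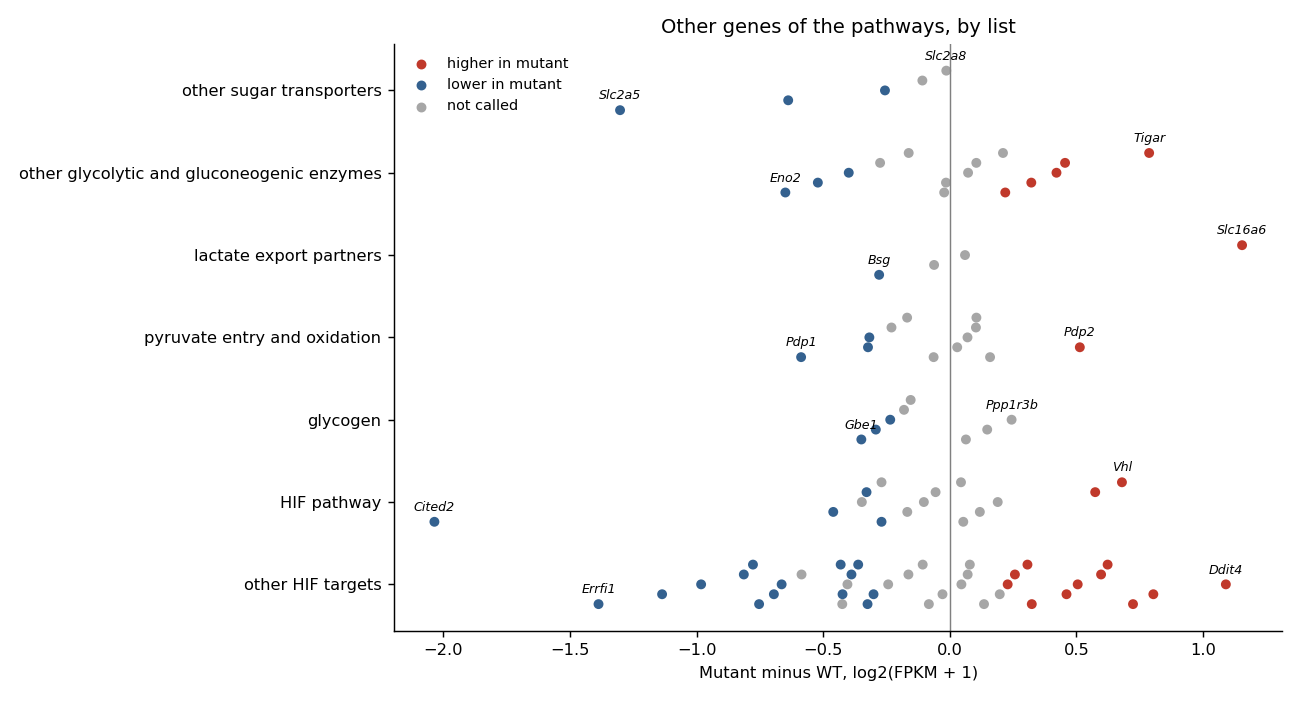
Log2 difference between mutant and WT cells for each tested gene of 7 lists of related genes (red higher, blue lower, grey not called in mutant cells, limma), with the lowest and highest gene of each list named. Cited2 lies farthest left at -2.04, and the other HIF targets spread from Errfi1 at -1.39 to Ddit4 at 1.09.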

How the data were processed

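RNA-seq was made from 3 mutant and 3 WT libraries. The authors' deposited values are FPKM per gene and library with an interval and a status, per the file headers, made with TopHat and Cufflinks, per the submitters' processing notes; their versions, the strandedness and the scaling between libraries are not stated in those sources. Those notes list build mm9, but the positions of 35 of 35 listed genes matched GENCODE M21 on GRCm38, and positions are read as that build, 1-based. The table's 24354 genes included 6232 at 0 FPKM in every library, and none of the listed genes' values had a status other than OK. No 2 libraries held identical values; Pearson's r across genes was 0.959 to 0.980 within and 0.939 to 0.953 between groups.

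The 11385 genes averaging 1 FPKM or more over all libraries were fitted on log2(FPKM + 1) with limma 3.58.1 in R 4.3.3 (genotype only, empirical Bayes with a trend), with Benjamini-Hochberg adjustment over all of them and a threshold of 0.05. Differences are mutant minus WT, and folds are ratios of mean FPKM; the log scale understates changes of low genes. Isozyme shares were compared by two-sided exact permutation in Python 3.11.15 with scipy 1.17.1. Near-identical transcripts shared at least 95% identity over at least 300 bases with those of another gene, and 11 listed genes had one; 11 had exons overlapped on the other strand. The fit was tested on simulated data. Alternatives covered the pseudocount, filter, scaling, variance prior, library weights, a replicate block, the threshold and leaving out each library.

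The genes, related lists and markers were chosen with earlier results of these data known. Listed genes past the threshold, and the most abundant of each role, are given in every library; of each related list, up to 6 genes past the threshold by smallest p are named. Depth is unknown, so intervals are the authors' own and no count test was run.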

Additional observations from a re-analysis of the deposited data

How the results depend on the processing

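Of 554 values of the 35 genes under 16 alternatives, 464 kept their direction and their side of the threshold, 42 kept their direction and lost the call, 15 kept it and gained a call, and 33 changed sign, of which 11 were past the threshold in either setting. Of the sign changes, 20 came from scaling. To the same total these were, on the log2 scale, Slc2a1 0.0803, Hk1 0.27, Pfkl 0.30, Pfkfb2 0.26, Tpi1 0.22, Pgk1 0.0833, Eno1 0.17, Pkm 0.20, Ldha 0.21, Ldhb 0.0729, Slc16a3 0.25, Pdk2 0.21 and Vegfa 0.0212; by quantile normalization, Slc2a1 0.0571, Pfkl 0.13, Tpi1 0.22, Pgk1 0.0765, Eno1 0.175, Pkm 0.26 and Ldha 0.24. The other 13 were of genes near 0 that passed in neither direction: with library weights Hk1 0.00844, Pfkfb2 0.0523, Slc16a3 0.0757, Pdk2 0.00319 and Hif1a -0.00517, and without 1 library in turn Hk1 (-0.0744 to 0.0186), Pfkfb2 (-0.096 to 0.0685), Slc16a3 (-0.142 to 0.0113), Pdk2 (-0.112 to 0.0178) and Hif1a (-0.0507 to 0.0505). The count of genes higher and lower was 7 and 11 as reported, 15 and 1 with libraries scaled to the same total, and 12 and 6 after quantile normalization. Over all 11385 tested genes it was 2642 and 2592 as reported, 5375 and 842 scaled to the same total, and 3012 and 2410 after quantile normalization. At a threshold of 0.01, 6 were higher and 7 lower, and 3188 of all tested genes were called, against 5234 at 0.05. Leaving out 1 library gave 6 to 7 higher and 7 to 11 lower genes, and 3879 to 5108 called among all tested. Without WT replicate 1 or WT replicate 2 there were 6 higher and 7 lower. Library weights called 7088 genes. With the replicate block 6 were higher and 7 lower, and 3798 genes were called in all. Deviations of same-numbered libraries correlated at 0.127, 0.122 and -0.007, and those of different-numbered libraries at -0.157 to 0.062. These values cannot settle whether the numbers pair the libraries, and the labels do not say. Of 84 share differences without 1 library, 2 changed sign, both for Pfkfb4 (-1.57 points without mutant replicate 3 and -0.04 without WT replicate 2). Hk2, Aldoc, Slc16a1, Egln1, P4ha2 and Ero1l were called higher in all 16 alternatives; Slc2a3, which passes the filter only through its WT libraries, was tested in 12. Depth is unknown, and for 15 of the 18 called genes all 9 pairs of deposited intervals overlapped between groups.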
